A study of Rattus norvegicus with 9 samples.

Results

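The transcripts of the circadian clock were followed in rat kidneys taken after warm ischaemia, with and without a later cold perfusion with Mesenchymal Stromal Cells (MSC). The genes were the core clock set of Per1, Per2, Per3, Cry1, Cry2, Arntl, Clock, Nr1d1, Nr1d2 and Dbp, taken by exact gene name from the non-control probes of the array. These 10 genes had 16 probes, of 30367 gene probes in all. A probe was tested when it was brighter, on at least 4 arrays, than a threshold set from the negative controls (1.1 times their 95th percentile on the log2 scale). By this filter 11 member probes of 8 genes passed, and 15635 probes of the whole array. The single Per1 probe, the 3 Per3 probes and 1 of the Clock probes did not pass, so that the tests below cover 11 of the 16.

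The study set 4 MSC kidneys beside 5 control kidneys (NP), each on its own Agilent 1-colour array. All kidneys came from Fisher F344 rats and had 20 min. of warm ischaemia by clamping of the renal artery before removal. MSC kidneys were then perfused for 4 hrs at 4°C with Belzer solution to which MSC had been added, grown from the bone marrow of transgenic Sprague Dawley rats that express EGFP, a green fluorescent tag. In the submitters' labels the treatment field of the controls says not perfused, as the paper does, while the titles and descriptions of the same samples name 4 hrs of Belzer perfusion. They are called NP here, and on that reading the groups differ in the perfusion as well as in the MSC. The age of the rats and the hour at which each kidney was removed are not given in the sources used here. The arrays lay on 2 slides with 1 scan each, the first with NP replicates 1, 2 and 3 and MSC replicates 1 and 2, the second with NP replicates 4 and 5 and MSC replicates 3 and 4.

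Between 65.6% and 74.3% of the gene spots were well above background, and no gene spot was saturated (0 on every array). Markers of the labelled tissue were present, with 11 of 11 proximal tubule, 6 of 6 thick ascending limb and 10 of 10 collecting duct genes passing the filter. Kidney segments and other tissue differed between arrays. At an unadjusted limma p under 0.05, 6 of 9 distal convoluted and connecting tubule probes and 5 of 11 collecting duct probes were higher in MSC, beside 6.51% of all probes. The summed intensity of the distal list was lowest on NP replicate 2 (61007, against 71243 to 161667 on the others) and that of the podocyte list on MSC replicate 4 (20731, against 28200 to 48499). The sums cover all listed genes on the array, whether or not they passed the filter. For 8 red cell genes the summed intensity was 58018 on MSC replicate 1 and 195321 on MSC replicate 3, against 392316 to 591861 on the others. For 12 fat genes it was 202553 on MSC replicate 3 and 149569 on MSC replicate 4, against 73215 to 107356 on the others.

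The clock of a mammalian cell is a feedback loop of transcription. BMAL1, the product of Arntl (now named Bmal1), pairs with CLOCK or its relative NPAS2 and switches on genes with E-boxes, among them the Per and Cry genes, Nr1d1, Nr1d2 and Dbp. PER and CRY proteins then block the pair, and REV-ERBα and REV-ERBβ, encoded by Nr1d1 and Nr1d2, repress Arntl through ROR elements. DBP, a bZIP factor, carries the rhythm to output genes through D-boxes, and in the kidney this clock is known to pace transport along the tubule. In peripheral tissues Arntl and Npas2 transcripts are known to run high at the time of day when Dbp and Nr1d1 transcripts run low.

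Some of the elements named above lie close to the start of clock genes, and 3 members whose windows held them are shown. The windows of 250 bases before the start of the gene were taken from RefSeq (GRCr8 build, gene strand, 5′ to 3′) and searched on both strands for the E-box CACGTG, its variant CACGTT, the ROR elements TAGGTCA and TGGGTCA and the D-box TTATGNAA. Capitals mark each match. Arntl held a ROR element whose first base lies 16 bases before the start, Per2 a CACGTT at 62 bases and a D-box at 192 bases, and 1 of the Nr1d1 windows an E-box at 191 bases.
Arntl (Bmal1), chr1:176766078-176766327, plus strand: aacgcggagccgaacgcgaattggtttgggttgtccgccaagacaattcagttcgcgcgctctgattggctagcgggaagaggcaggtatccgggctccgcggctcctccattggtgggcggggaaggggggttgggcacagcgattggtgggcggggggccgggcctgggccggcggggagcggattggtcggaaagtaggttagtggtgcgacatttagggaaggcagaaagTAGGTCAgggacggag
Per2, chr9:99496994-99497243, minus strand: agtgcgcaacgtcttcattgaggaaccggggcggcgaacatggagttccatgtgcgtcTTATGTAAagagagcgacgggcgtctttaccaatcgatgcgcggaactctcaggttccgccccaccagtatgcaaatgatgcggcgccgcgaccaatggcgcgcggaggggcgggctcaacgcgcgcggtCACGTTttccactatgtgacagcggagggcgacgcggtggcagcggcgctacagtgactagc
Nr1d1, chr10:84229455-84229704, minus strand: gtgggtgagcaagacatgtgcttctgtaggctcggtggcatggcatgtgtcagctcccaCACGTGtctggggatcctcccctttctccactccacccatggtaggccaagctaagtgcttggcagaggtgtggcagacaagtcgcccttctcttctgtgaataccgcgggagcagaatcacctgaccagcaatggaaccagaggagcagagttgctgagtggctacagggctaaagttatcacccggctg
No printed matches overlap. Of 33469 promoter windows of this length, 5.59% held CACGTG, 4.07% held CACGTT, 5.62% held either ROR element and 3.28% held the D-box, each counted on both strands. The other Nr1d1 window and that of Cry2 each held AACGTG, which is CACGTT on the opposite strand. In the windows of Dbp, Nr1d2, Per1, Per3 and Clock these letters were not found, which says nothing of elements elsewhere in those genes. Cry1 was not searched, so that 9 of the 10 members are covered.

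No clock gene passed the test between MSC and NP kidneys, and each difference was within the spread between kidneys. By limma with the Benjamini-Hochberg false discovery rate (FDR) over all 15635 probes, 0 of 11 member probes passed an FDR of 0.05, as did 0% of all probes. At an unadjusted p under 0.05, limma called 0 of 11, where 11.7% of all probes were called (6.51% higher in MSC and 5.19% lower). The lowest FDR of a member was 0.537, and the lowest exact permutation p, from every division of the 9 arrays into sets of these sizes, was 0.190 (two-sided, where the smallest possible is 0.00794). Values of the groups overlapped for all 11 probes tested, whereas they did not overlap for 5.31% of all probes (3.17% higher in MSC and 2.14% lower). Of the 11 log2 fold changes, 8 were below 0 (51.3% of all probes were), with a median of -0.17 beside -0.0048 over all probes and a range from -0.36 to 0.19. In whole kidney RNA, fewer cells of a type and less RNA per cell cannot be told apart.

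**Figure D1:**
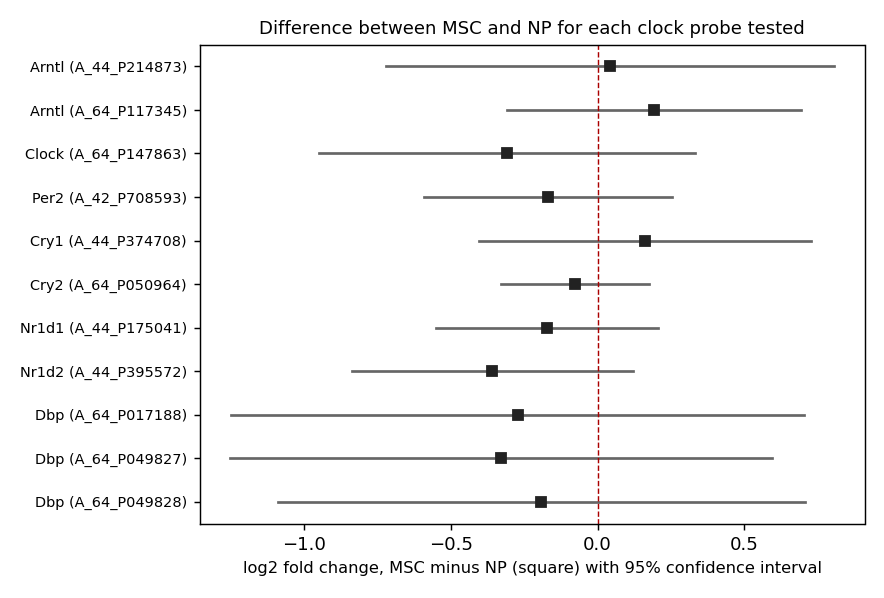
Difference between MSC and NP (log2 fold change, x axis) for the 11 clock probes tested, by gene and probe (y axis). Squares are limma estimates from 4 MSC and 5 NP arrays and bars their 95% confidence intervals, each of which crosses 0. The intervals are widest for the 3 Dbp probes, from -1.25 to 0.70 for the brightest of them, and narrowest for Cry2.

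Arntl, the activator at the head of the loop, had 2 probes. The brighter one (A_44_P214873, rn4 chr1:171161969-171162028) read 11.42, 10.50, 11.27, 11.03 and 10.01 on NP replicates 1 to 5 and 11.35, 10.58, 10.17 and 11.46 on MSC replicates 1 to 4, as normalized log2 intensity. NP replicate 5 and MSC replicate 3 were low, MSC replicate 4 and NP replicate 1 were high, and both groups spanned almost the whole range. The means were 10.89 ± 0.62 (SD, n = 4) for MSC and 10.85 ± 0.58 (SD, n = 5) for NP, a log2 difference of 0.04 ± 0.34 (SE) with a limma FDR of 0.971. The other probe (A_64_P117345, chr1:171154767-171154826) lies upstream in the transcript. It is printed with the less bright Dbp probes and the Nr1d1 probe to show what the array reads of these transcripts, while the correlations below were computed on the brightest probe of each gene. Its deviations from the group means had an r of 0.963 with those of the brighter probe over the 9 arrays, and its difference was 0.19 ± 0.22 (SE, FDR 0.762). With single arrays left out, that difference was largest without MSC replicate 3 and smallest without MSC replicate 4.
Arntl A_64_P117345: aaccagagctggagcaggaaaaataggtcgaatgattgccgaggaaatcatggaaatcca
Dbp A_64_P049827: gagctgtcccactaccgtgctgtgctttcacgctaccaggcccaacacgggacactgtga
Dbp A_64_P049828: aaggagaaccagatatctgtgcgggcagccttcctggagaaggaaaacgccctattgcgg
Nr1d1 A_44_P175041: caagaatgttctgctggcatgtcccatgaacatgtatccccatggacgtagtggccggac

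Clock, the partner of Arntl, had 1 tested probe (A_64_P147863, chr14:34243744-34243803). It read 8.69, 10.26, 9.46, 9.41 and 9.08 on the NP arrays and 8.92, 9.41, 8.63 and 9.32 on the MSC arrays. NP replicate 2 stood highest, and all MSC values lay within the NP range except that of MSC replicate 3, just below it. The difference was -0.31 ± 0.29 (SE, FDR 0.694), with a 95% confidence interval of -0.95 to 0.33. It was -0.09 without NP replicate 2 and larger than -0.31 in size without NP replicate 1, the lowest NP array. The Clock probe that did not pass read 8.07 to 8.41 over the 9 arrays.

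Among the repressors, Per2 (chr9:90645610-90645669) read 10.57, 10.60, 10.35, 10.16 and 10.96 in NP and 10.38, 10.63, 10.54 and 9.87 in MSC. The highest Per2 value was that of NP replicate 5 and the lowest that of MSC replicate 4, with the other MSC kidneys inside the NP range. Its log2 difference was -0.17 ± 0.19 (SE, FDR 0.752), and it nearly vanished without MSC replicate 4. Cry1 (chr7:20708985-20709044) read 10.82, 9.95, 10.35, 9.78 and 10.27 in NP and 10.29, 10.28, 9.94 and 11.08 in MSC. MSC replicate 4, the kidney lowest in Per2, was highest in Cry1, and the groups overlapped (difference 0.16 ± 0.25, SE, FDR 0.836). Cry2 (chr3:76802802-76802861) had the narrowest range of the probes tested, between 8.64 and 9.11 over all arrays. Its difference was -0.08 ± 0.11 (SE, FDR 0.818), and smaller in size without NP replicate 2, its highest array. Per1 stayed between 8.27 and 8.55 and the 3 Per3 probes between 7.93 and 8.94, close to the level of the filter (8.75 to 8.87), and the spots of Per1 were well above background on 7 of 9 arrays.

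The nuclear receptors that repress Arntl came next. Nr1d1 (A_44_P175041, chr10:87543165-87543519, a span longer than the probe) read 11.40, 11.22, 11.06, 11.46 and 11.49 in NP and 10.76, 11.26, 11.63 and 10.98 in MSC. MSC kidneys held both the highest and the lowest Nr1d1 values, and the difference was -0.17 ± 0.17 (SE, FDR 0.713). It was larger in size without MSC replicate 3, with an unadjusted limma p under 0.05 but no call by FDR. Nr1d2, whose probe has no rn4 position in the files, read 8.84, 10.06, 9.33, 9.22 and 9.45 in NP and 8.92, 9.34, 9.02 and 8.82 in MSC. Its log2 difference of -0.36 ± 0.21 (SE) was the furthest from 0 of the 11 probes, with an FDR of 0.537 and a 95% interval of -0.84 to 0.12. It was -0.19 without NP replicate 2, and larger than -0.36 in size without NP replicate 1 (limma FDR 0.251). NP replicate 2 was again the highest array, as it was for Clock and Cry2.

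Dbp, the output factor, had the widest range of the members tested. Its brightest probe (A_64_P017188, chr1:96178423-96178482) read 14.88, 15.21, 14.61, 15.15 and 16.20 on NP replicates 1 to 5 and 14.15, 15.12, 16.21 and 14.28 on MSC replicates 1 to 4. One kidney of each group, NP replicate 5 and MSC replicate 3, stood near 16.2, while MSC replicates 1 and 4 were lowest. MSC kidneys had a mean of 14.94 ± 0.95 (SD, n = 4) and NP kidneys one of 15.21 ± 0.60 (SD, n = 5), a log2 difference of -0.27 ± 0.44 (SE) with an FDR of 0.841 and an exact permutation p of 0.548. With single arrays left out the difference lay between -0.0081 (without MSC replicate 1) and -0.69 (without MSC replicate 3), and it was -0.02 without NP replicate 5 and -0.05 without MSC replicate 4. The other Dbp probes (chr1:96178148-96178207 and chr1:96178064-96178123) gave -0.33 ± 0.41 and -0.19 ± 0.40 (SE). Over the 9 arrays the 3 Dbp probes followed one another with r between 0.973 and 0.984.

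**Figure D2:**
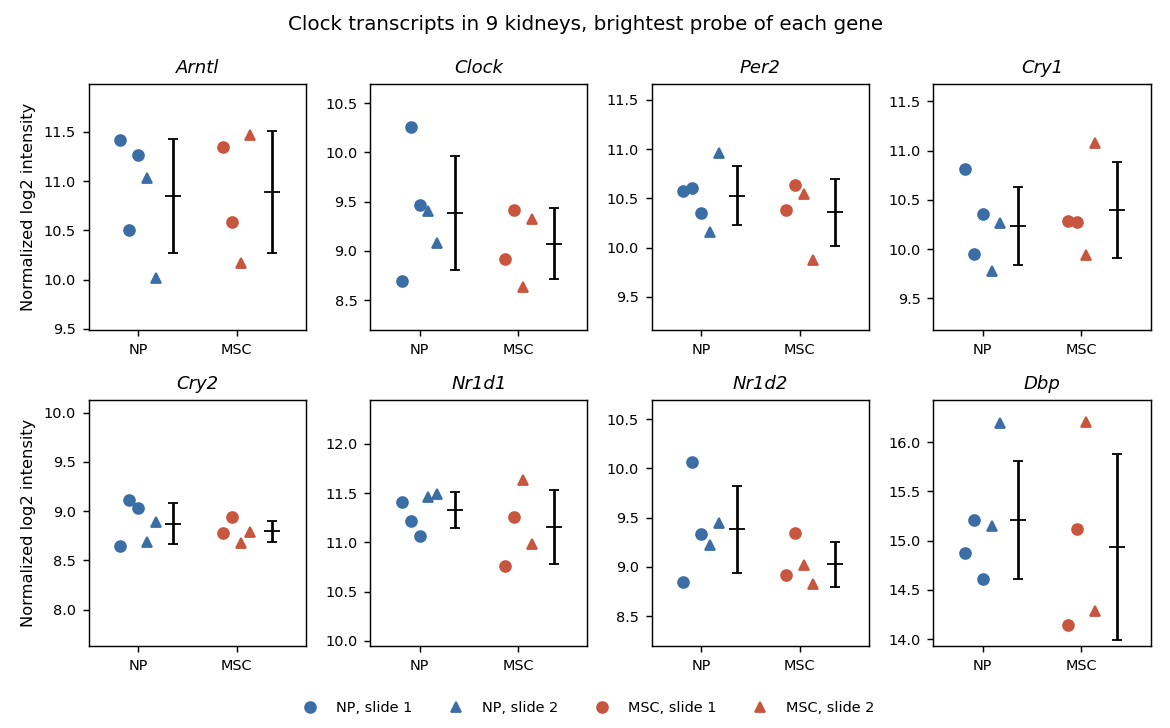
Normalized log2 intensity (y axis, the same span in each panel) of 8 clock genes by group (x axis), brightest probe of each gene. Points are single kidneys (5 NP, 4 MSC), circles on slide 1 and triangles on slide 2, and the bar beside each group is its mean ± SD. The groups overlap in every panel, and 1 kidney of each group stands near 16.2 for Dbp.

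The spread between kidneys differed from one clock transcript to another. From the lowest to the highest of the 9 arrays, Dbp differed by 3.75 to 4.39-fold by probe, Clock by 3.09-fold, Arntl by 2.73 and 2.03-fold, Cry1 by 2.46-fold, Nr1d2 by 2.36-fold, Per2 by 2.12-fold, Nr1d1 by 1.83-fold and Cry2 by 1.38-fold. The SD of log2 values within groups was 0.77 for the brightest Dbp probe, at percentile 98.9 of all 15635 probes, and 0.60 for the brighter Arntl probe, at percentile 97.1. Compared with probes of like brightness only (bins of equal size by mean intensity), these percentiles were 98.7 and 94.6. Clock stood at percentile 94.8, Cry1 at 92.3, the other Arntl probe at 89.2, Nr1d2 at 87.8, Per2 at 83.4, Nr1d1 at 78.7 and Cry2, with the smallest SD of the members tested, at 48.0. In all, 6 of 11 member probes lay above the 90th percentile, of which 3 belong to Dbp, and the median SD was 0.44 beside 0.17 over all probes. These are descriptions of the 9 kidneys, and probes of the same gene are not independent.

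**Figure D3:**
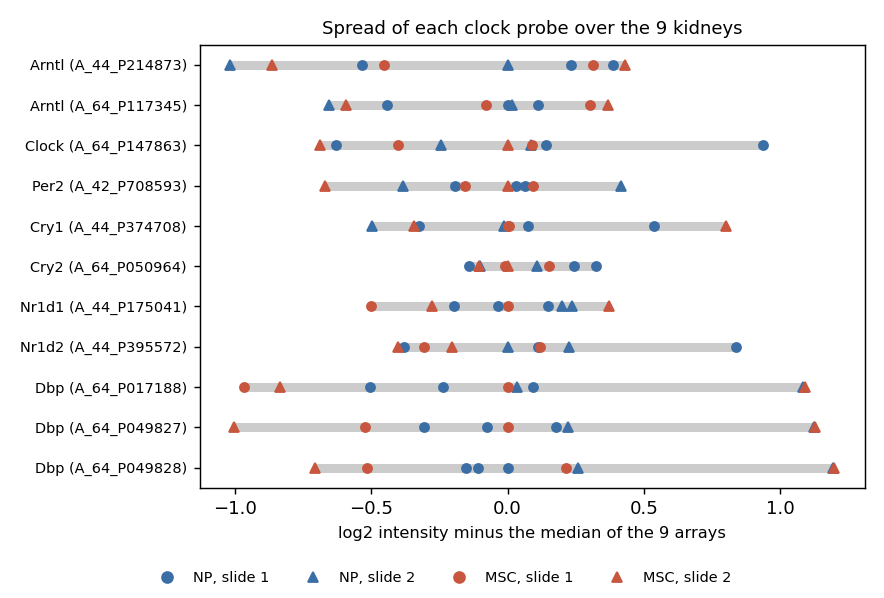
Log2 intensity of each kidney minus the median of the 9 arrays (x axis) for the 11 clock probes tested (y axis). Points are kidneys, blue for NP and red for MSC, circles on slide 1 and triangles on slide 2, and grey bars run from the lowest to the highest array. The bars of Dbp span about 2 log2 units (1.91 to 2.13) and that of Cry2 0.47.

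Dbp and Arntl varied in opposite directions. To compare kidneys within groups, each value was taken as its deviation from the mean of its group, and the significance of Pearson's r was found from all 2880 exchanges of arrays within groups. The brightest probe of Dbp had an r of -0.925 with that of Arntl over the 9 arrays (exact permutation p = 0.00208, two-sided, adjusted p = 0.0188 over the 9 relations of Arntl with another member). Spearman's rho was -0.883 (exact permutation p = 0.00625, adjusted p = 0.0563). With NP replicate 5 and MSC replicate 3 left out, the arrays farthest from the median of Arntl, r was -0.855 (exact permutation p = 0.0417, adjusted p = 0.167). With the slide means removed as well as the group means, r was -0.937 and the call was lost (exact permutation p = 0.0625, adjusted p = 0.281). Here, and without the arrays farthest from the median, the exchanges were too few for 1 relation alone to reach an adjusted p of 0.05. These adjusted values therefore cannot decide whether the relation holds. Both groups and both slides gave the same sign, with r = -0.910 in the 5 NP kidneys, -0.968 in the 4 MSC kidneys, -0.848 on slide 1 and -0.981 on slide 2. The values within groups and slides are descriptions, with no test. The adjusted p rose above 0.05 when NP replicate 2, 4 or 5 or MSC replicate 2 or 3 was left out (0.0625, 0.0625, 0.0938, 0.0750 and 0.0750), with r between -0.892 and -0.955 over these 5 and fewer exchanges to count.

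None of the other 8 relations with Arntl passed the adjustment. Per2 had an r of -0.741 with Arntl (rho -0.783, exact permutation p = 0.0358, adjusted p = 0.161), the next in size after Dbp. For the Arntl repressors, r was -0.678 for Nr1d1 (rho -0.700, adjusted exact p = 0.216) and -0.594 for Nr1d2 (rho -0.800, adjusted exact p = 0.248). Cry1 alone had an r above 0 with Arntl, 0.588 (rho 0.667, adjusted exact p = 0.248). Clock, the partner of Arntl, had an r of -0.059 (rho 0.017), Cry2 one of -0.250 (rho -0.317), Per1 one of -0.379 (rho 0.033) and Per3 one of -0.491 (rho -0.200). Several of these values moved without NP replicate 5 and MSC replicate 3, to -0.901 for Nr1d2, -0.755 for Clock, -0.570 for Per2, -0.375 for Nr1d1 and 0.781 for Per1 (exact permutation p = 0.0208, 0.0556, 0.257, 0.451 and 0.0972, not adjusted). The Per1 and Per3 probes did not pass the filter, although the Per3 probe used here was well above background on 9 of 9 arrays.

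**Figure D4:**
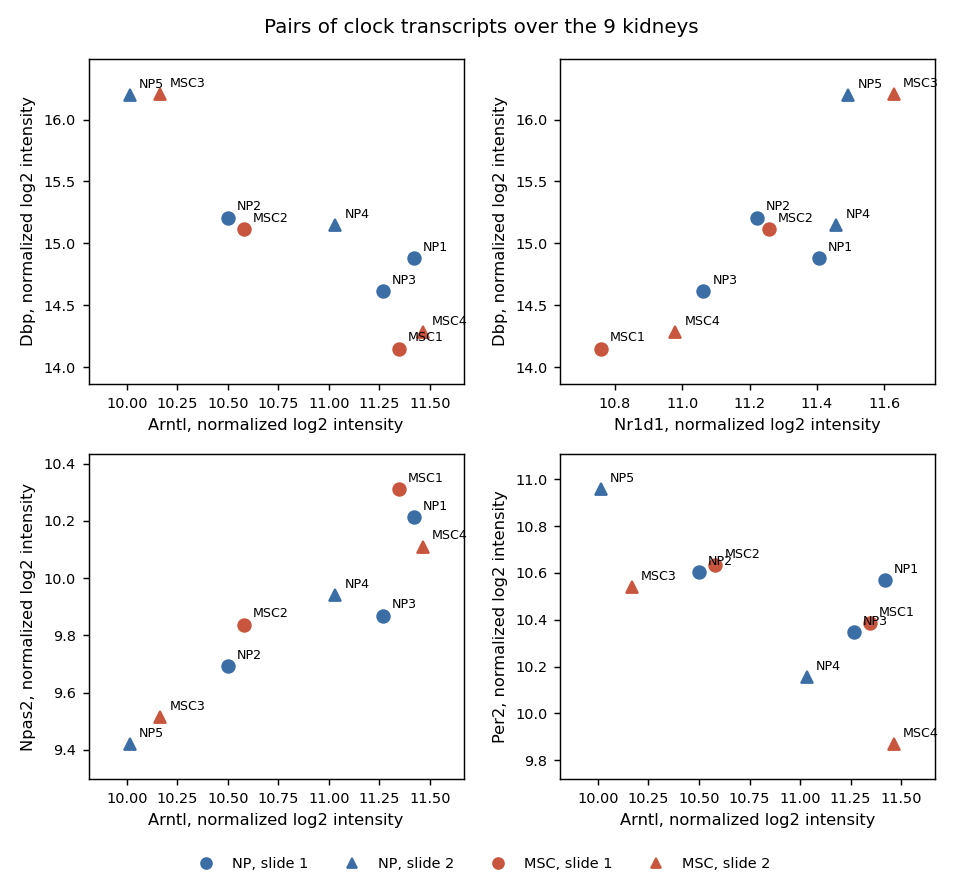
Normalized log2 intensity of 4 pairs of clock transcripts, 1 gene on each axis, with each of the 9 kidneys as a point named by group and replicate (circles on slide 1, triangles on slide 2). NP replicate 5 and MSC replicate 3 lie together at low Arntl and high Dbp, and MSC replicates 1 and 4 at high Arntl and low Dbp. Npas2 rises with Arntl and Dbp with Nr1d1 over both groups.

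Between all 45 pairs of members, Nr1d1 and Dbp had the largest positive r, 0.881 (rho 0.900, exact permutation p = 0.00660, adjusted p = 0.148 over the 45). Without MSC replicates 1 and 3, the arrays farthest from the median of Nr1d1, r was 0.732 (exact permutation p = 0.100). Over these 45 pairs 0 passed an adjusted p of 0.05, with 0.0937 for Arntl and Dbp, and 6 had an exact p under 0.05, or 2 without NP replicate 2. Cry2, Clock and Nr1d2 also varied together, with r = 0.824 for Cry2 and Nr1d2 (rho 0.750), 0.787 for Cry2 and Clock (rho 0.767) and 0.796 for Clock and Nr1d2 (rho 0.483). That group rested in part on NP replicate 2, the highest array for all 3 genes and the lowest for the summed distal tubule list, whose part in this was not tested. Without it the values were 0.720, 0.644 and 0.510, with exact permutation p of 0.0799, 0.118 and 0.255. Without NP replicates 1 and 2, the arrays farthest from the median of Cry2 and of Clock, they were 0.567, 0.470 and 0.133. Per2 and Dbp had an r of 0.653 (rho 0.783, adjusted exact p = 0.531).

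**Figure D5:**
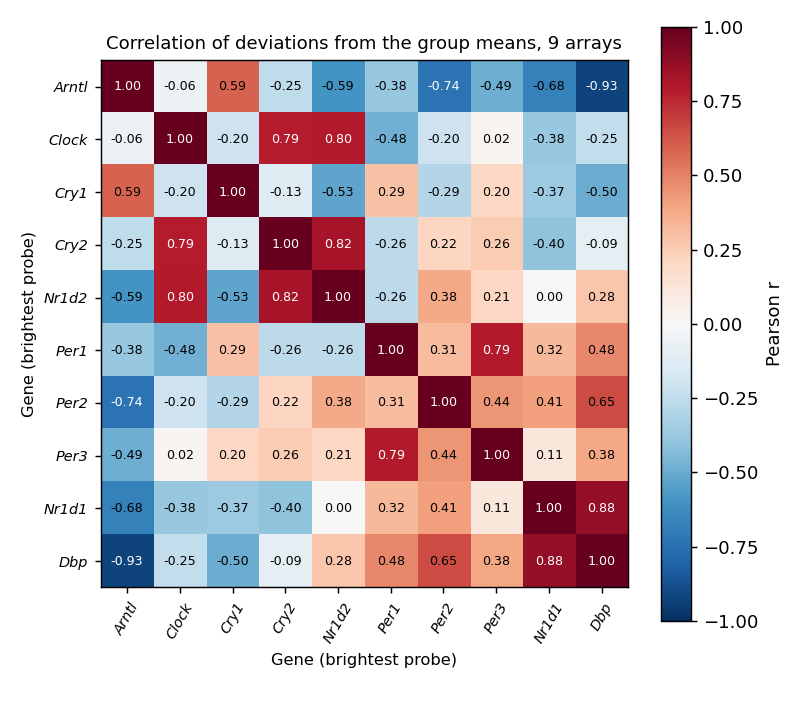
Pearson's r of deviations from the group means over 9 arrays for each pair of the 10 members, brightest probe of each gene, from -1 (blue) to 1 (red). Arntl is opposed to Dbp (-0.93), Per2 (-0.74) and Nr1d1 (-0.68), Nr1d1 goes with Dbp (0.88), and Cry2, Clock and Nr1d2 go together (0.79 to 0.82).

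Ranked by r with Arntl among the 15633 probes with a value on every array, counting the Arntl probe itself, the second Arntl probe ranked 2 and Npas2, which can stand in for CLOCK as the partner of BMAL1, ranked 5 (r = 0.941). Npas2 read 10.21, 9.69, 9.87, 9.94 and 9.42 in NP and 10.31, 9.84, 9.51 and 10.11 in MSC, low on NP replicate 5 and MSC replicate 3 like Arntl. The other named genes among the 5 most like Arntl were Parva (0.951), Synrg (0.943), Misp (0.928) and Scx (0.924). At the opposite end, Dbp ranked 3 from the bottom, after Cttnbp2 (-0.989) and Gprin3 (-0.927). The genes most like Dbp were Cttnbp2 (0.945), Glyctk (0.937), Gprin3 (0.929), Tspan17 (0.926) and Hk2 (0.926), while Nr1d1 ranked 13 and Npas2 had an r of -0.892 with Dbp. These ranks were read off a search of the whole array and carry no test.

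No member passed the test between the slides either. Between slide 2 and slide 1, with the group in the limma model, 0 of 11 member probes passed an FDR of 0.05 (0.0959% of all probes did) and 0 had an unadjusted p under 0.05 (13.8% of all probes), the lowest member FDR being 0.504. Dbp was 0.70 ± 0.40 (SE, log2) higher on slide 2 and Nr1d1 0.27 ± 0.15. The difference between MSC and NP was -0.27 on slide 1 and -0.43 on slide 2 for Dbp, and -0.22 and -0.17 for Nr1d1. It changed sign between slides for the brighter Arntl probe (-0.10 and 0.29), Cry1 (-0.09 and 0.48) and Per2 (0.0017 and -0.35), and kept it for the other Arntl probe (0.22 and 0.21). The interaction of group and slide called 0 of 11 member probes at an FDR of 0.05 (0% of all probes), and 0 had an unadjusted p under 0.05 (1.96% of all probes).

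No summed marker list or intensity measure had a relation with Arntl or Dbp that passed the test. Of 32 relations of their deviations with the summed intensity of 14 gene lists, the median spot intensity and the share of spots well above background, 0 had an exact permutation p under 0.05, and the lowest adjusted p was 0.979. For Dbp the largest r was 0.721 with the share of spots well above background (rho 0.483, exact permutation p = 0.0615). It was 0.532 without the 2 arrays farthest from the median of that share, taken as deviations from the group means. The fat list had an r of 0.579 with Dbp (rho 0.283) and of -0.359 with Arntl (rho 0.000). The signs turned, to -0.405 and 0.488, without MSC replicates 1 and 3, the lowest and highest MSC arrays for fat, which deviated most from their group mean. For the red cell list r was 0.190 with Dbp (rho 0.133) and -0.133 with Arntl (rho 0.083).

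Other genes of the clock also did not pass the FDR between MSC and NP. Of 22 such genes 18 were on the array by name and 14 passed the filter, with 18 probes. By limma, 0 of 18 passed an FDR of 0.05, with a median difference of -0.01. At an unadjusted p under 0.05, 3 were lower in MSC and 0 higher. That is 16.7% of them, beside 11.7% of all probes in either direction and 5.19% lower in MSC. The 3 probes, of Usp2, Gsk3b and Csnk1e, were each highest on NP replicate 2 (15.14, 12.59 and 9.44). Usp2, a deubiquitinase of clock proteins, was -0.61 ± 0.19 (SE, FDR 0.333). Gsk3b, a kinase of clock proteins, was -0.37 ± 0.16 (SE, FDR 0.423). Csnk1e, the casein kinase that marks PER for decay, was -0.43 ± 0.15 (SE, FDR 0.354) by 1 probe, while its other probes gave -0.42 ± 0.21 and -0.0029 ± 0.072. For the first of these probes all MSC values (8.42 to 8.56) lay below the level of the filter (8.75 to 8.87). It passed only through NP replicates 2 to 5, so its count as lower in MSC is no support for a difference. For other genes of highest mean intensity the differences (log2) were -0.50 for Tef, a relative of Dbp, 0.52 for Nfil3, which opposes Dbp at D-boxes, 0.18 for Wee1, -0.14 and -0.09 for the Csnk1d probes and -0.01 for Bhlhe40, none with an unadjusted limma p under 0.05.

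Glucocorticoids and immediate early factors are known to act on Per genes, and their gene lists were set beside the members. Of 15 probes for glucocorticoid-responsive genes 1 was lower in MSC at an unadjusted p under 0.05, Ddit4 at -0.65 ± 0.20 (SE, limma FDR 0.333), with a list median of -0.09. That is 6.67% of the list, beside 5.19% of all probes lower in MSC. The Ddit4 difference was -1.21 on slide 1 and -0.02 on slide 2, and its other probe gave -0.22 ± 0.16. Fkbp5 was at -0.59 ± 0.33 and Sult1a1 at 0.17 ± 0.14. Among 23 probes for immediate early genes 2 were higher, Fos at 1.44 ± 0.57 (SE, limma FDR 0.390) and Ier5 at 0.52 ± 0.22 (FDR 0.413), with a list median of 0.35. These are 8.70% of the list, beside 6.51% of all probes higher in MSC. The other, brighter Ier5 probe gave 0.31 ± 0.25 (SE, FDR 0.646), and Nr4a2 was at 0.42 ± 0.19. The summed intensity of the immediate early list was higher on slide 2 (581075 to 695569) than on slide 1 (276135 to 522957) in both groups. It had an r of 0.499 with Dbp (rho 0.433, exact permutation p = 0.199) and of -0.338 with Arntl (rho -0.267).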

How the data were processed

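RNA of 9 rat kidneys (5 NP, 4 MSC) was measured on SurePrint G3 Rat GE 8x60K arrays. The authors read the scanned images with Agilent Feature Extraction 10.7.3.1 (named in the submitters' processing notes, with build rn4). Of the intensities deposited for each of 62976 spots, the pixel mean without background subtraction was used, and the others served in alternatives. The log2 values that the authors normalized between arrays and deposited served as an alternative, with an r of 0.9999 or more (0.99990 to 0.99997) with the values used here.

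Mean intensities were log2 transformed and normalized by cyclic loess (limma 3.58.1, R 4.3.3, and the data.table package, version 1.17.8). Flagged spots (273 to 593 per array) were left out and the spots of a probe averaged. The filter is one reading of the methods' wording. MSC and NP were compared with limma, each probe on its own. All 10 member accessions matched RefSeq. The clock members, the gene lists and the tests were chosen with earlier results of these data known. The genes named are all member probes, other clock genes with an unadjusted p under 0.05 and the 6 brightest, the 3 smallest p of the glucocorticoid and immediate early lists, and the 5 genes most like Arntl and Dbp. The steps were tested on simulated data. The labels name separate samples and not separate animals, so p-values measure the spread between these samples. No column with values per sample was left unused (0 columns). Alternatives changed the intensity column, normalization, filter, probe choice, variance model, block or arrays, changing a single choice each time. The number of arrays limits the precision. The MSC array that the authors left out was not analysed here, and some genes that this rule or the lists would name are not reported here.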

Additional observations from a re-analysis of the deposited data

How the results depend on the processing

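Of 27 alternatives for MSC against NP, 0 called a clock probe at an FDR of 0.05 (lowest FDR 0.251, for Nr1d2 without NP replicate 1). Unadjusted limma p under 0.05 appeared for 1 member probe on slide 2 alone and 1 without NP replicate 1 (both Nr1d2) and for 2 without MSC replicate 3 (Nr1d1 and Dbp). The slide and interaction fits called 0 member probes in each alternative. No member value was called, but 12 of 294 recomputed member values changed sign. On slide 1 alone Per2 was at 0.0017, Arntl at -0.099 and Cry1 at -0.093. With single arrays left out the log2 difference lay between -0.17 and 0.28 for Arntl (below 0 without NP replicate 2 or 5 or MSC replicate 1 or 4), between -0.067 and 0.31 for Cry1 (below 0 without MSC replicate 4), between -0.57 and 0.061 for the Dbp probe A_64_P049828 (above 0 without NP replicate 5 or MSC replicate 4) and between -0.0072 and 0.26 for Npas2 (below 0 without MSC replicate 1).

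Whether the replicate numbers of the labels pair the kidneys was not tested. Same-numbered arrays deviated with r of 0.197, 0.320, -0.351 and 0.048. MSC replicates 1 and 2 were most like the NP arrays of the same number, and MSC replicates 3 and 4 most like NP replicates 5 and 2. With the replicate block, 0 clock probes were called, 5 other clock probes instead of 3 had an unadjusted p under 0.05, Arntl was at -0.17 and a Dbp probe at 0.05. Without MSC replicates 3 and 4, the arrays high in fat genes, 0 other clock probes had such a p. The Csnk1e probe near 0 changed sign in 15 of 25 alternatives. Array weights called 2 probes of the whole array and slide 2 alone 4, none of them members.

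For Arntl and Dbp r lay between -0.855 and -0.955 in all 19 alternatives. The adjusted exact p was under 0.05 in 10 of them, leaving 1 relation called, and 0 relations were called by Spearman's rho (0.0563), after slide means were also removed (r = -0.937, 0.281), without the 2 arrays farthest from the Arntl median (0.167), without MSC replicates 3 and 4 (0.0750) and without 5 single arrays (0 to 1 relations over the left-out arrays). Fewer arrays or smaller strata also allow fewer exchanges. After slide means were removed, or without the 2 arrays farthest from the Arntl median, 1 relation alone could not have passed. Relations of Per1, Per3, Cry2 and Clock with Arntl, none of them called, changed sign in some alternatives. By rho, Per1 was at 0.033 and Clock at 0.017. Quantile normalization gave Per1 0.013, and 75th percentile scaling gave Per1 0.12, Per3 0.052, Cry2 0.019 and Clock 0.0062. With single arrays left out r lay between -0.33 and 0.24 for Clock, -0.57 and 0.36 for Per1 and -0.75 and 0.17 for Per3, and without the 2 arrays farthest from the Arntl median Per1 was at 0.78 and Clock at -0.755. The number of probes above the 90th percentile of spread was 5 to 8, and over these alternatives the brightest probe stayed at or above percentile 96.3 for Dbp and 94.7 for Arntl. The small number of arrays limits every value, and Per1 and Per3 lie near the level of the filter. Alternatives for the interaction, the other clock genes and the spread were chosen after seeing the data.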
